A study of Mus musculus with 4 samples.

Results

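The clustered protocadherins were compared between mouse embryonic fibroblasts lacking Mll1 and wild-type fibroblasts. Members were all array features whose platform gene symbol begins with Pcdha, Pcdhb or Pcdhg, followed by a digit or letter. The genes were thus selected on symbols and on no measured value, but the family itself was chosen by a look at earlier results, namely these same Mll1-/- against wild-type log2 ratios, so its ratios and calls are a description and support nothing beyond themselves. It found 44 features of 31 genes among 45018 features, whose singly named ones represent 19087 genes. The 31 genes comprise 3 of the Pcdha subcluster with 6 features, 22 of the Pcdhb subcluster with 28 features and 6 of the Pcdhg subcluster with 10 features. RefSeq's genes of assembly GRCm38.p6 include 58 genes with such symbols, all on chromosome 18, of which 14 are Pcdha, 22 Pcdhb and 22 Pcdhg. The features thus name every listed Pcdhb gene but only 3 Pcdha and 6 Pcdhg genes, and the other Pcdha and Pcdhg genes were not analysed here.

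Clustered protocadherins are cadherin-like adhesion proteins, best known from neurons, where combinations of them at the cell surface let a cell tell its own branches from those of other cells. Each variable exon of the clusters has its own promoter. A Pcdha or Pcdhg transcript joins 1 variable exon to constant exons shared by its whole subcluster, whereas each Pcdhb gene is a single coding exon with no shared constant part. Promoter choice is known to involve DNA methylation, the architectural protein CTCF and cohesin. Mll1 (current symbol Kmt2a) is an enzyme that methylates lysine 4 of histone H3.

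Total RNA of an Mll1-/- line (written Mll-/- in some labels) and of a wild-type line, both of fibroblasts kept in DMEM with serum, was hybridised together on each of 4 two-colour Agilent arrays. Dyes were swapped, with Cy5 on the knockout RNA in arrays 1 and 3 and on the wild-type RNA in arrays 2 and 4. The labels name neither the deleted part of Mll1 nor the origin, strain or age of the lines, and they do not say that arrays came from separate cultures, so genotype and line cannot be told apart and a p-value here reflects array-to-array spread alone, possibly technical. Each value is a ratio treated as log2 and, likely, as Mll1-/- over wild type, a direction taken from the sample titles and from Kmt2a itself at −1.24 ± 0.42 (SD, n = 4). With the opposite direction, rises and falls would swap throughout.

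Ratios hold no level, so the fibroblast label could not be checked against marker levels. Channel signals were not used here, so how far a ratio stands above background cannot be said, and precision is limited by there being 4 arrays. The median log2 ratio of the 14222 genes tested was −0.0007, and on single arrays it lay between −0.02 and 0.01. In a bulk measurement of this kind, fewer expressing cells and less RNA per cell cannot be told apart. Features can cross-hybridise among the closely related Pcdhb genes, and a Pcdha or Pcdhg feature can lie in a shared constant exon. Probe sequences were not used here, so neither could be examined.

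The 3 subclusters had different median ratios. Both Pcdha genes with values on every array were higher in the knockout, beside 29.1% of all genes called higher. Of 13 such Pcdhb genes 11 were lower, 6 of them by at least 4-fold, beside 30.1% and 3.01% of all genes. The 3 such Pcdhg genes lay between −0.54 and −0.20 on the log2 scale. The median log2 ratio was 1.41 for Pcdha (2 genes, 1.29 and 1.52), −1.35 for Pcdhb (13 genes, from −4.14 to 1.11) and −0.20 for Pcdhg (3 genes). The Pcdhb median ran from −1.47 on array 1 to −1.30 on array 3, the Pcdha median from 1.31 to 1.52, and the Pcdhg median from −0.43 to −0.09, so the order of the 3 medians was the same on each array.

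Of the 31 genes, 18 had at least 1 feature with a value on all 4 arrays and entered the test (limma with a dye term, Benjamini-Hochberg adjusted p under 0.05 over all genes tested). Of these 18, 2 were called higher and 13 lower, beside 29.1% of all genes called higher and 30.1% called lower. Changes of at least 2-fold among the called were 2 higher, both Pcdha, and 9 lower, all Pcdhb, beside 6.3% and 8.06% of all genes. The sign was above 0 on all 4 arrays for 2 genes, against 32.9% of all genes, and below 0 on all 4 for 12 genes, against 33.7% of all genes. Since 59.2% of all genes were called in either direction, and the family was taken up from this same contrast, these counts are given without a reading.

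**Figure D1:**
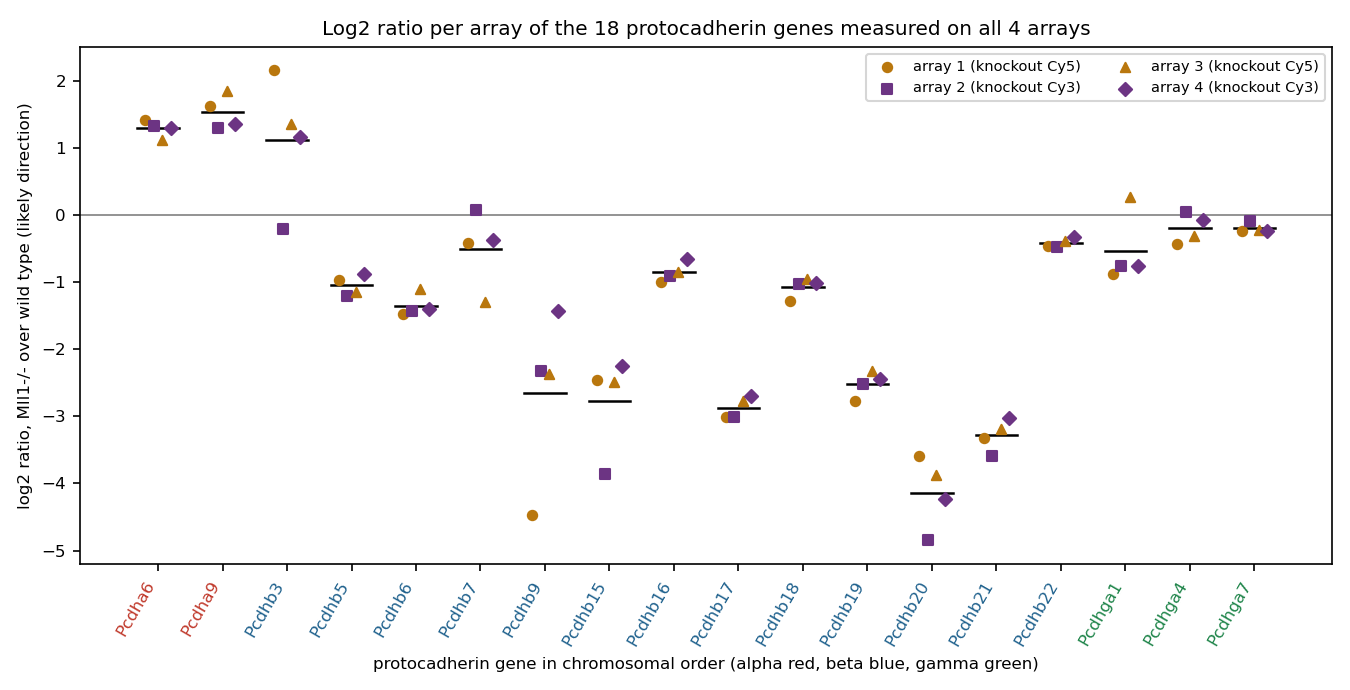
Log2 ratio (vertical axis) on each of the 4 arrays for the 18 protocadherin genes with a value on every array, in chromosomal order, with the black bar at the mean. Pcdha6 and Pcdha9 lie above 0 on every array, 11 Pcdhb genes lie below 0 on every array, and the Pcdhg means lie between −0.54 and −0.20.

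The Pcdha subcluster was represented by Pcdha4, Pcdha6 and Pcdha9, each an alternative first exon spliced to the common alpha constant exons. Pcdha6 had log2 ratios of 1.41, 1.33, 1.11 and 1.29 on arrays 1 to 4. All 4 were above 0, and Pcdha6 rose 2.44-fold (1.29 ± 0.13). Pcdha9 had ratios of 1.62, 1.29, 1.84 and 1.35, again all above 0, and rose 2.88-fold (1.52 ± 0.25). Pcdha4 had a value on array 2 only, −0.87, and was not tested.

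The features behind the 2 Pcdha averages differed widely. The first Pcdha6 feature gave 2.47, 2.29, 2.28 and 2.47 on arrays 1 to 4 (2.38 ± 0.10). The second gave 0.36, 0.36, −0.05 and 0.11 (0.20 ± 0.20). The 2 sets did not overlap, and only the first passed when features were tested singly (limma, adjusted p = 0.000655 against 0.177). The rise of Pcdha6 as a gene therefore rests on 1 of its 2 features.

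Pcdha9 had 3 features. Its second gave 3.62, 2.69, 4.07 and 2.55 (3.23 ± 0.73) and its last 1.32, 2.01, 1.82 and 1.95 (1.77 ± 0.31). Its first gave −0.08, −0.83, −0.37 and −0.45 (−0.43 ± 0.31), below 0 on every array and opposite in sign to the others. Tested singly, this first feature passed as lower (limma, adjusted p = 0.0317). The second and last passed as higher (limma, adjusted p = 0.000781 and 0.00194). The spread between feature means was 3.66 for Pcdha9 and 2.18 for Pcdha6 on the log2 scale. Among the 5983 genes with several fully measured features, the median spread was 0.28, and 8.71% had a spread over 1.

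**Figure D2:**
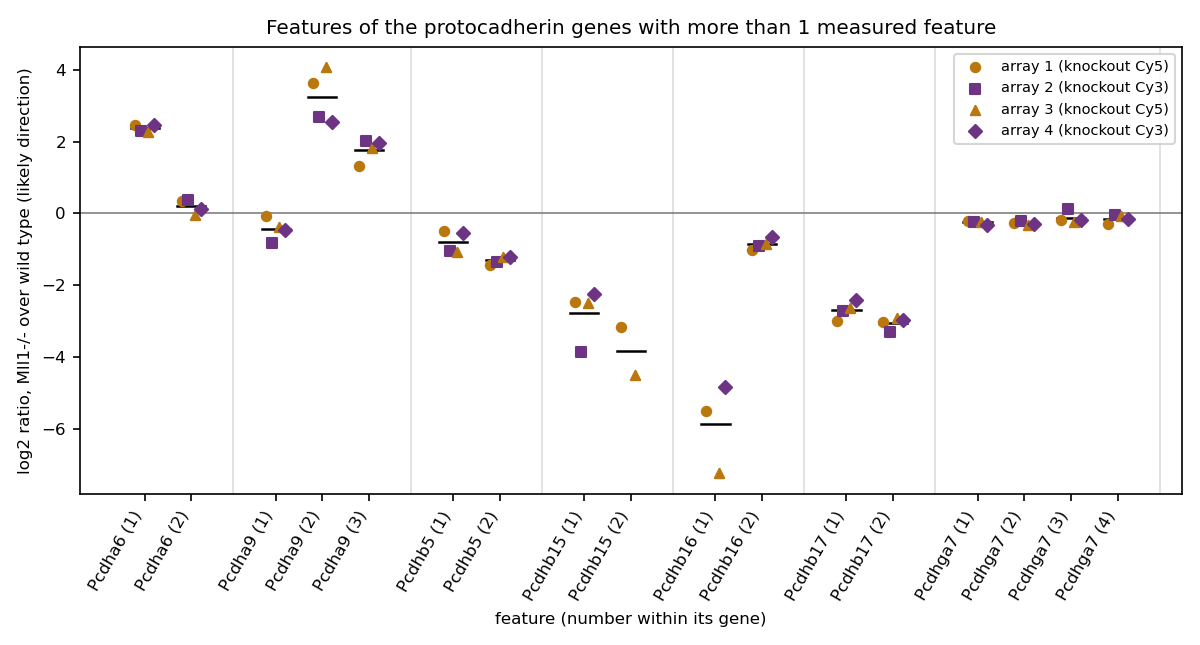
Log2 ratio (vertical axis) on each array for every feature with a value, in the 7 protocadherin genes with more than 1 such feature, with the black bar at the feature's mean. Features of Pcdha6, Pcdha9 and Pcdhb16 lie at different levels within their gene, whereas the 2 features of Pcdhb17 and the 4 of Pcdhga7 lie close together.

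The Pcdhb subcluster held the largest ratios of the family. Pcdhb20 had log2 ratios of −3.60, −4.85, −3.88 and −4.23 on arrays 1 to 4. Every array was far below 0, and Pcdhb20 fell 17.6-fold (−4.14 ± 0.54). Pcdhb21, its neighbour, had ratios of −3.32, −3.59, −3.19 and −3.03 and fell 9.73-fold (−3.28 ± 0.24). Like the other Pcdhb genes, both encode single-exon cell-surface protocadherins.

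Pcdhb17 was measured by 2 features that gave similar values. Averaged, its ratios were −3.01, −3.01, −2.77 and −2.70, a 7.33-fold fall (−2.87 ± 0.16), and the feature means were −2.69 and −3.06. Pcdhb19 had ratios of −2.77, −2.52, −2.33 and −2.44 and fell 5.72-fold (−2.52 ± 0.19), from 1 feature, while its other feature was blank on every array. These were even ratios, with SDs near the median SD of all genes, 0.17.

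Pcdhb15 and Pcdhb9 fell by similar amounts with a wider spread. Pcdhb15 had ratios of −2.46, −3.87, −2.48 and −2.26 and fell 6.81-fold (−2.77 ± 0.74), array 2 being lowest. A second Pcdhb15 feature, with values on arrays 1 and 3 only, gave −3.15 and −4.51. Pcdhb9 had ratios of −4.47, −2.33, −2.37 and −1.44 and fell 6.28-fold (−2.65 ± 1.29), the widest SD of the 18 genes. Its call was lost without array 2 (fitted ratio −2.43, limma adjusted p = 0.0661). Here and below, a fitted ratio with 1 array left out is the estimate of the fit with its dye term. It weighs the 2 dye orientations equally and is not the plain mean of the arrays left.

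Falls of smaller size were even from array to array. Pcdhb6 had ratios of −1.47, −1.44, −1.11 and −1.40 and fell 2.56-fold (−1.35 ± 0.17). Pcdhb18 had −1.28, −1.03, −0.95 and −1.01 and fell 2.10-fold (−1.07 ± 0.15). Pcdhb5 had −0.96, −1.21, −1.15 and −0.88 and fell 2.07-fold (−1.05 ± 0.15), with feature means of −0.79 and −1.31. None of these 3 genes had an array above −0.88.

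Pcdhb16 and Pcdhb22 fell by less than 2-fold. The fully measured Pcdhb16 feature had ratios of −1.01, −0.91, −0.85 and −0.67 and fell 1.81-fold (−0.86 ± 0.14). The other Pcdhb16 feature gave −5.49 on array 1, −7.24 on array 3 and −4.82 on array 4 and was blank on array 2. Both lay below 0, but their means differed by 4.99 on the log2 scale, so the size of the Pcdhb16 difference depended on the feature. With features of at least 3 values admitted its ratio became −2.74. There, array 2 held the fully measured feature alone, whereas arrays 1, 3 and 4 averaged both. Pcdhb22, the last gene of the subcluster, had ratios of −0.46, −0.48, −0.39 and −0.32 and fell 1.33-fold (−0.41 ± 0.07).

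Pcdhb3 and Pcdhb7 did not pass the test. Pcdhb3 had ratios of 2.15, −0.20, 1.35 and 1.15 (1.11 ± 0.98), 3 arrays above 0 and array 2 below it, with a limma adjusted p = 0.0501. It passed as higher in 5 of 13 alternative settings, among them without array 2 (fitted ratio 1.45, limma adjusted p = 0.0363). The median over features and single features left the values of its 1 feature unchanged, with a limma adjusted p = 0.0493 in each. Pcdhb7 had ratios of −0.42, 0.08, −1.30 and −0.38 (−0.50 ± 0.58, limma adjusted p = 0.106), with array 2 on the other side of 0. It passed as lower in 2 of 13 settings, among them without array 1 (fitted ratio −0.73, limma adjusted p = 0.0438).

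The other 9 Pcdhb genes had no feature with a value on every array. Pcdhb14 had ratios of −1.02, −3.66 and −1.79 on arrays 1 to 3, all below 0. Pcdhb4 had 0.38, −0.03 and −0.02 on arrays 1, 2 and 4, close to 0. Pcdhb11 had −2.49 on array 1 and −0.31 on array 4. Pcdhb13 had a single value, −5.58 on array 1, among the 8 possible from its 2 features. Pcdhb1 (0.08), Pcdhb8 (1.63) and Pcdhb12 (−1.503) had a value on array 4 only, and Pcdhb2 and Pcdhb10 had none. Counting every Pcdhb feature with any value, 19 of 24 had only values below 0, 2 only values above 0, and 3 had both signs. Of 6 such Pcdha features, 2 had only values below 0, 3 only above 0 and 1 both signs. Of 9 such Pcdhg features, 3 had only values below 0, 2 only above 0 and 4 both signs. A feature with 1 value can show only 1 sign, and signs were not counted over all features.

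The genes of the Pcdhb subcluster were also set out by their order on the chromosome, a layout chosen after the values were seen. Of the first 11 genes, Pcdhb1 to Pcdhb11, 5 were tested and 3 fell, with a median of −1.05 and a range from −2.65 to 1.11. Of the last 11, Pcdhb12 to Pcdhb22, 8 were tested and all 8 fell, beside 30.1% of all genes called lower, with a median of −2.64 and a range from −4.14 to −0.41. Falls of at least 4-fold numbered 1 in the first set and 5 in the last, beside 3.01% of all genes. The ranges overlapped, genes with small and large ratios alternated within the last set (Pcdhb16 and Pcdhb18 beside Pcdhb17 and Pcdhb19), and the difference between the sets was not tested.

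**Figure D3:**
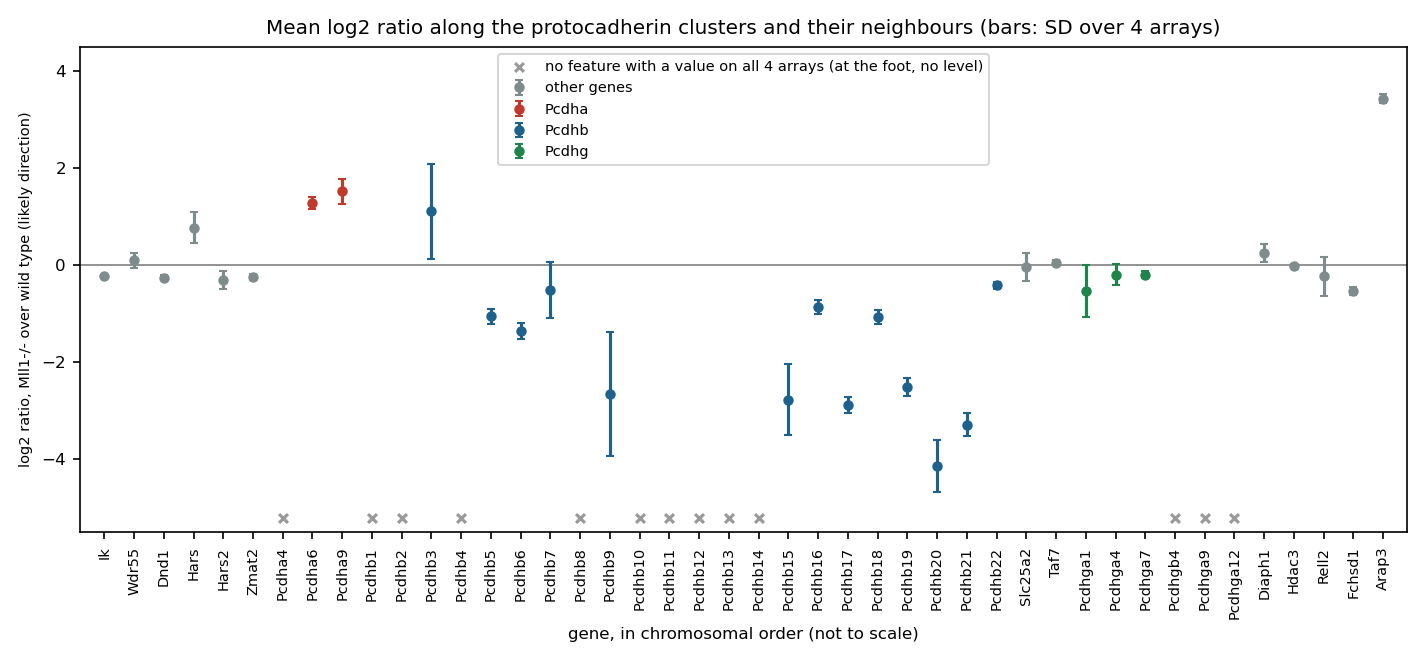
Mean log2 ratio (vertical axis, bars SD over 4 arrays) of the protocadherin genes and of neighbouring genes with values, in chromosomal order and not to scale. Crosses at the foot mark protocadherin genes with no feature measured on all 4 arrays and carry no level. Pcdhb15 to Pcdhb21 hold ratios from −0.86 to −4.14, while Slc25a2 and Taf7, between the Pcdhb and Pcdhg genes, lie near 0.

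Of the 6 Pcdhg genes, 3 were tested. Pcdhga7, an alternative first exon of the gamma subcluster with 4 features, had log2 ratios of −0.24, −0.09, −0.22 and −0.24, all just below 0 (−0.20 ± 0.07, 1.14-fold). Its 4 feature means lay between −0.27 and −0.12. Pcdhga4 had ratios of −0.43, 0.04, −0.31 and −0.08 (−0.20 ± 0.21, 1.15-fold), above 0 on array 2, and its other feature was blank throughout. Pcdhga7 and Pcdhga4 passed the test as lower (limma, adjusted p = 0.0332 and 0.0362). The call was lost in 5 of 13 alternative settings for Pcdhga7 and in 7 of 13 for Pcdhga4, each time including the removal of any array.

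Pcdhga1 had ratios of −0.88, −0.76, 0.26 and −0.77 (−0.54 ± 0.54). Array 3 stood on the other side of 0 from the rest, and the gene did not pass (limma, adjusted p = 0.123). It passed as lower without array 3 (fitted ratio −0.82, limma adjusted p = 0.0145). Pcdhgb4 had −0.18, 0.89 and −1.74 on arrays 2, 3 and 4, with both signs. Pcdhga9 had a value on array 1 only, 0.74, and Pcdhga12 on array 4 only, 1.14.

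Blank values were a second readout of the table, and what makes a value blank is not given in the sources used here. Of the 176 values possible for the 44 features, 49 were blank (27.8%), against 24.4% over all features and 18.9% over features with 1 gene symbol. By subcluster, 3 of 24 Pcdha values, 35 of 112 Pcdhb values and 11 of 40 Pcdhg values were blank (12.5%, 31.2% and 27.5%). Values were present on all 4 arrays for 26 features, on 3 arrays for 4, on 2 for 2, on 1 for 7 and on none for 5. The 5 features with no value belonged to Pcdhb2, Pcdhb10, Pcdhb13, Pcdhb19 and Pcdhga4.

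Blanks were not even over the genes or arrays. No feature of Pcdha6, Pcdha9, Pcdhb3, Pcdhb5, Pcdhb6, Pcdhb7, Pcdhb9, Pcdhb17, Pcdhb18, Pcdhb20, Pcdhb21, Pcdhb22, Pcdhga1 or Pcdhga7 had a blank. Pcdhb13 had 7 blanks in 8 values. Pcdhb2, Pcdhb10, Pcdhb19 and Pcdhga4 had 4 each, in 4, 4, 8 and 8 values. Pcdha4, Pcdhb1, Pcdhb8, Pcdhb12, Pcdhga9 and Pcdhga12 had 3 in 4. Pcdhb11 had 2 in 4 and Pcdhb15 2 in 8. Pcdhb4, Pcdhb14 and Pcdhgb4 had 1 in 4, and Pcdhb16 1 in 8. Array 4 had the fewest blank protocadherin features, 10 of 44, and arrays 2 and 3 the most, 14 each, with 11 on array 1. Over all features, array 4 also had the fewest (16.9%) and array 3 the most (29.8%).

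**Figure D4:**
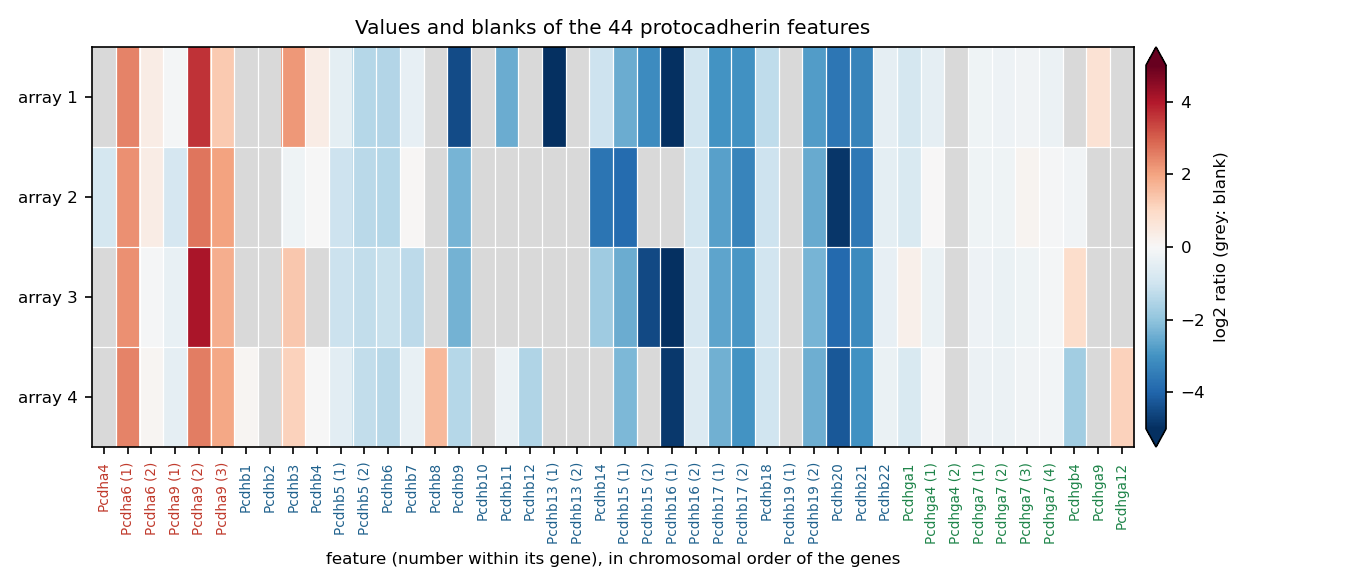
Log2 ratio (colour, blue lower and red higher in the knockout, values beyond 5 at the end colours) of the 44 protocadherin features, in chromosomal order of their genes, on arrays 1 to 4 from top to bottom, with blanks in grey. Blanks lie in every subcluster and are spread along the Pcdhb genes, and the measured values in the columns from Pcdhb15 to Pcdhb21 are blue.

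The dye term of the same fit was read beside the genotype ratio. Of the 18 genes, Pcdha9 and Pcdhga4 were the 2 below 0.05 before adjustment (limma, unadjusted p = 0.0291 and 0.0271), beside 14.8% of all genes. None of the 18 passed after adjustment (limma, lowest adjusted p = 0.316). Of all 14222 genes 0 passed, so the lack of a call does not show that a dye effect was absent. For Pcdha9 the second feature carried the difference, with 3.62 and 4.07 where the knockout was labelled with Cy5 against 2.69 and 2.55 where it was labelled with Cy3. Over the 18 genes, the arrays correlated with each other at r from 0.87 to 0.96, as a description of genes that share the same 4 hybridisations. Over the 29054 features with a value on all arrays, pairs of the same dye orientation had r of 0.83 (arrays 1 and 3) and 0.85 (arrays 2 and 4). Pairs of opposite orientation had r from 0.72 to 0.78.

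Genes beside the clusters differed mostly by small amounts. Of the 8 nearest genes before Pcdha1 in the RefSeq order, 6 were tested, with ratios from −0.30 to 0.78. Ik, Dnd1, Hars2 and Zmat2 fell by 0.22 to 0.30 on the log2 scale, and Hars, the cytosolic histidyl-tRNA synthetase, rose (0.78 ± 0.32), though the lower of its 2 features did not pass by itself (0.10, limma adjusted p = 0.121). Between the Pcdhb and Pcdhg genes lie Slc25a2, a mitochondrial ornithine carrier, at −0.04 ± 0.29, and Taf7, a subunit of the general transcription factor TFIID, at 0.05 ± 0.06, and neither passed. Of the 8 nearest genes after Pcdhgc5, 5 were tested. The formin Diaph1 rose (0.25 ± 0.19) and Fchsd1 fell (−0.53 ± 0.09), while the histone deacetylase Hdac3 (−0.01 ± 0.03) and Rell2 (−0.23 ± 0.40) did not pass. Arap3 was the exception and rose 10.8-fold (3.43 ± 0.09), with a log2 ratio of 2.59 when features of at least 3 values were admitted. The calls of Ik, Dnd1, Zmat2 and Diaph1 were lost without any 1 array, that of Hars without array 2, 3 or 4 and that of Hars2 without array 1, 2 or 4.

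Other cadherin families are set beside the same shares of all genes, 29.1% called higher and 30.1% lower. Of 8 tested non-clustered protocadherins, which are separate genes elsewhere in the genome or farther along chromosome 18, 5 rose and 2 fell, with a median of 0.52. Pcdh18 rose 2.86-fold (1.51 ± 0.15), Pcdh9 2.42-fold (1.28 ± 0.45) and Pcdh19 2.002-fold (1.002 ± 0.299). The Pcdh9 call was lost without array 2 or 4 and with single features (0.96, limma adjusted p = 0.0704). Pcdh7 fell 2.61-fold (−1.38 ± 0.13) and Cdhr1, a photoreceptor cadherin, 2.54-fold (−1.35 ± 0.14). Among 16 tested cadherins of the Cdh series 5 rose and 3 fell (median 0.26). Cdh26 was highest, 13.02-fold (3.70 ± 0.46), and the mesenchymal cadherin Cdh11 was the largest of the falls at −0.87 ± 0.17. The sign of the smallest of the falls followed the dye. It had 0.42 and 0.46 on arrays 1 and 3, with Cy5 on the knockout, and −1.35 and −1.09 on arrays 2 and 4. Of 7 Fat, Dachsous and Celsr cadherins, Fat4 fell 4.44-fold (−2.15 ± 0.47) and the other 6 did not pass (median −0.01). No difference between these families and the clustered genes was tested.

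Lists of factors known to act on or with the clusters had medians between −0.12 and 0.29, and 59.2% of all genes were called in either direction. Of 16 architecture and cohesin genes 5 rose and 3 fell, with a median of −0.12, from Smc3, a core cohesin subunit, at 0.66 ± 0.23 to Esco2, a cohesin acetyltransferase, at −1.09 ± 0.09. Of 20 genes for DNA methylation and other silencing 6 rose and 8 fell, with a median of 0.01. Cbx1, a heterochromatin protein, rose (0.51 ± 0.15), and Dnmt3l, a cofactor of DNA methylation, fell (−0.999 ± 0.360, a call lost without array 4). Of 20 genes of known protocadherin partners in signalling and cleavage 10 rose and 5 fell, with a median of 0.29, again beside 29.1% of all genes called higher and 30.1% lower, from the GTPase Rhoa at 0.72 ± 0.11 to Ptk2b, the kinase Pyk2 that protocadherins are known to inhibit, at −0.77 ± 0.14.

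**Figure D5:**
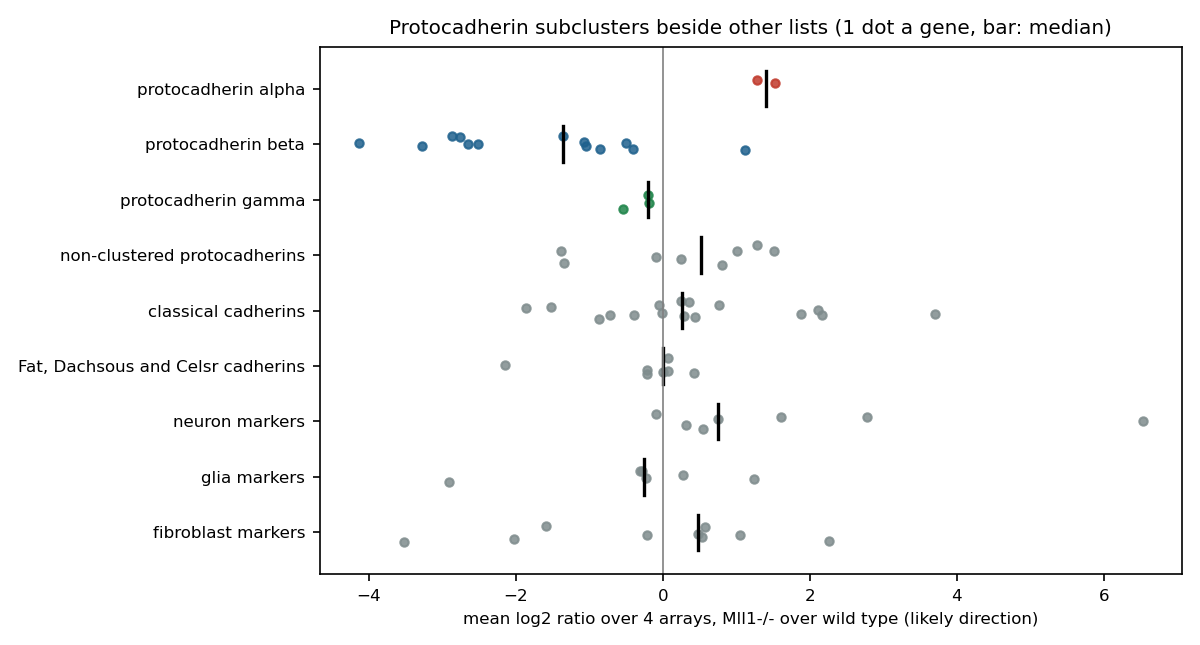
Mean log2 ratio over the 4 arrays (horizontal axis) of each tested gene in the 3 protocadherin subclusters and in 6 other lists, with the black bar at the median. The Pcdhb median is −1.35, and the medians of the 6 other lists lie between −0.26 and 0.74.

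Markers of other cell types and of fibroblasts were read from the same fit, in which 29.1% of all genes were called higher and 30.1% lower. Of 14 neuron markers 7 were tested, of which 5 rose and none fell, with a median of 0.74 and the neuronal microtubule protein Map2 highest (6.53 ± 0.47, and 5.12 with features of at least 3 values). Of 6 tested glia markers 1 rose and 1 fell (median −0.26), Mbp (1.23 ± 0.32) and Slc1a3 (−2.91 ± 1.81). Mbp became −0.16 with features of at least 3 values, and Slc1a3 lost its call in 6 of 13 settings, its fitted ratio ranging from −3.89 to −1.93 with single arrays left out. Of 9 tested fibroblast markers 4 rose and 3 fell (median 0.47), from the collagen Col3a1 (2.27 ± 0.53, and 1.66 with features of at least 3 values) to the collagen receptor Ddr2 (−3.53 ± 0.12). The part of these markers in the protocadherin ratios was not tested.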

How the data were processed

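The 4 arrays were 2-colour Agilent 4x44k mouse arrays, read with Agilent Feature Extraction 10.1.1 per the submitters' processing notes. The authors deposited 1 value per feature and array, treated here as a log2 ratio of the channels. Base 2 was inferred from the range of values. The direction is not stated and was inferred from the sample titles and Kmt2a. For background correction and normalization the labels give nothing.

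Features were named through the platform annotation, with symbols updated by gene ID to a RefSeq table of GRCm38.p6 (33517 of 33653 singly named features matched). Features with a value on all arrays and 1 symbol (24012) were averaged per gene. The genotype test used lmFit and eBayes of limma 3.58.1 (R 4.3.3) with a gene-specific dye term, leaving 2 residual degrees of freedom, and adjusted by Benjamini and Hochberg at 0.05 over 14222 genes. Errors are SDs over arrays. Alternatives were no dye term, centring, scaling, features with at least 3 values, the median over features, single features, a robust prior, array pairs averaged and each array left out. For single features, each gene was represented by its middle feature by ratio, or the lower of the middle 2. With 1 array left out the dye term stayed, so the 1 array left of its dye orientation counted as much as the other 2 together. The members and the 9 gene lists were chosen with earlier results of these data known. Named genes are all members, Kmt2a, the 8 nearest genes on either side and those between the subclusters, and in each list the largest change past the threshold each way (3 each way for non-clustered protocadherins). Sequences of chromosome 18 were not used here.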

Additional observations from a re-analysis of the deposited data

Results flagged for a closer look

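In 5 of the 51 genes named, 1 array stood apart, its gap to the nearest other array being a large share of the range over the 4 arrays. A test of this kind marks about 1 in 20 groups by chance, and it marked 2.84% of all genes here. Among the protocadherins, Pcdhb15 was lowest on array 2 (−3.87, the others from −2.48 to −2.26, gap 0.858 of the range), Pcdhga1 was highest on array 3 (0.26, the others from −0.88 to −0.76, gap 0.896) and Pcdhga7 was highest on array 2 (−0.09, the others from −0.24 to −0.22, gap 0.880). Beyond them, Dnd1 was lowest on array 3 (−0.34, the others from −0.23 to −0.22, gap 0.912), and Ddr2 was highest on array 4 (−3.35, the others from −3.61 to −3.57, gap 0.832).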

How the results depend on the processing

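Of the 18 tested protocadherin genes, 11 kept their direction and their side of the threshold in all 13 alternative settings, 10 of them falling Pcdhb genes and the other Pcdha9, and no protocadherin gene changed direction. For Pcdha9 the single-feature setting used its middle feature (1.77), whereas its first feature passed singly as lower (−0.43, limma adjusted p = 0.0317). Over all genes, 4140 were higher and 4275 lower, against 2690 and 2923 with arrays 1 and 2, and 3 and 4, averaged, and 4758 and 4914 with arrays 1 and 4, and 2 and 3, averaged. With single arrays left out, higher genes ran from 2532 to 2860 and lower ones from 2879 to 3005. Lower Pcdhb genes ran from 10 to 12, lower Pcdhg genes from 0 to 1, higher Pcdhb genes from 0 to 1, and the Pcdhb median from −1.45 to −1.26 over the same removals. With features tested singly, each gene stood by its middle feature by ratio, the lower one where it had 2. Pcdha9 was then the 1 Pcdha gene called higher. Pcdha6 stood by its lower feature (0.20), which did not pass, although its other feature did (2.38, limma adjusted p = 0.000655). The Pcdha median was 0.98 in that setting, and with the median over features it was 1.53. Pcdhb3 made 1 higher Pcdhb gene with arrays scaled, with the median over features, with single features and with arrays 1 and 2, and 3 and 4, averaged. It has 1 feature, so the median over features and single features left its values unchanged. Lower Pcdhg genes numbered 1 with no dye term, 0 with arrays 1 and 2, and 3 and 4, averaged, and 1 with the other pairing. With features of at least 3 values the Pcdhb median was −2.52. There, Pcdhb16 moved from −0.86 to −2.74. Pcdhb14 was added at a fitted ratio of −2.53 (limma, adjusted p = 0.0163) and Pcdhb4 at 0.18 (limma, adjusted p = 0.111), on opposite sides of the median. The plain mean of the 3 Pcdhb14 values was −2.16, since the fit let array 2 (−3.66) count as much as arrays 1 and 3 together. The fitted ratios of Slc25a2 (0.0853) and Hdac3 (0.00801, and −0.0288 at its lowest, without array 2) turned sign without array 4, and that of Mbp (−0.16) with features of at least 3 values. In the fit without array 4, array 2 counted as much as arrays 1 and 3 together. Slc25a2 was above 0 on array 2 (0.39) and below it on arrays 1 and 3 (−0.22 on each). The causes were not tested. Of 33 other named genes, 20 kept their call and direction throughout. Each array held both genotypes, so every ratio was already paired within its array, and no further pairing was added because the arrays form a single group.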
